A study of Mus musculus with 10 samples.

Results

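The expression of 10 costimulatory and checkpoint genes was examined in mouse peritoneal macrophages exposed to oxidized low-density lipoprotein (ox-LDL). The genes were Cd80, Cd86, Cd28, Cd274, Pdcd1lg2, Icosl, Cd40, Cd83, Cd200r1 and Havcr2. They were taken by name from the gene count table, where all 10 were matched among 29700 rows other than circular RNAs. Cd28 was chosen by its strong fall between these same control and ox-LDL libraries, so its values are described without a test and it is left out of every count of calls. All 10 passed the filter on low counts, but Icosl passed through the ox-LDL libraries alone (5 of 5 over the minimum, against 1 of 5 controls) and Cd28 through the controls alone (5 of 5 against 1 of 5). A gene that passes through its high group alone is bound to differ, so Icosl is also described without a test and left out of the counts.

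Macrophages were elicited with thioglycollate in C57BL/6 mice aged 8 weeks and collected from the peritoneal cavity on the third day. The ox-LDL group was primed with LPS at 100 ng/ml, a bacterial product sensed by Toll-like receptor 4, and then kept for 16 h with ox-LDL at 100 µg/ml. The control group is labelled untreated. By these labels the groups differ in LPS and ox-LDL together, and the effects of the agents cannot be told apart. Other wording in the series and the study leaves room for priming of the controls as well, and this was not settled. Each group held 5 libraries, given as biological replicates, made from total RNA and sequenced on the BGISEQ-500 platform. The cells came from lavage of the peritoneal cavity, and no sort by a surface marker is described for them.

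Activation of a T cell takes an antigen signal and a further signal from the antigen-presenting cell. The ligands CD80 and CD86 give that signal through CD28 and are bound more tightly by the inhibitory receptor CTLA-4. PD-L1 (encoded by Cd274) and PD-L2 (encoded by Pdcd1lg2) restrain T cells through PD-1, and ICOS ligand (Icosl) acts through ICOS. CD40 receives the CD40 ligand of helper T cells and licenses the presenting cell, CD83 stabilizes MHC class II and CD86 at the surface, and CD200R1 and TIM-3 (Havcr2) are inhibitory receptors carried by macrophages. In atherosclerotic plaques, macrophages and T cells meet, and these molecules are studied there as regulators of inflammation.

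All 10 genes lie outside any other annotated gene of the mm9 build. Cd274 (NCBI gene 60533, chr19:29441945-29462585, plus strand) and Pdcd1lg2 (NCBI gene 58205, chr19:29485409-29545647, plus strand) are neighbours, 22823 bases apart with no annotated gene between them. Cd80 (NCBI gene 12519, chr16:38459013-38495821, plus strand), Cd86 (NCBI gene 12524, chr16:36603955-36666167, minus strand) and Cd200r1 (NCBI gene 57781, chr16:44765849-44795091, plus strand) share chromosome 16, and Cd28 (NCBI gene 12487, chr1:60773644-60830203, plus strand) lies 113640 bases from Ctla4. The others are Icosl (NCBI gene 50723, chr10:77532105-77546000), Cd83 (NCBI gene 12522, chr13:43880476-43898499), Cd40 (NCBI gene 21939, chr2:164881127-164898448) and Havcr2 (NCBI gene 171285, chr11:46268437-46294757), all on the plus strand. Cd200r1 belongs to a cluster of similar receptor genes, and how reads shared within such families were assigned is not stated.

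Promoter sequences of RefSeq (GRCm38.p6), from 250 bases before to 50 after the start of the gene, were matched for 5 members, namely Cd274, Pdcd1lg2, Icosl, Cd80 and Havcr2. Motifs tied to interferon and NF-kB signals were searched on both strands, since these are the classical inducers of several of the genes. The motifs were GAS (TTCNNNGAA), found in 8.33% of 32544 promoters, the core of the interferon-stimulated response element (GAAA, any 2 bases, GAAA), found in 3.45%, and the NF-kB consensus, found in 4.53%. The promoters of the neighbouring PD-1 ligand genes and of Icosl are shown because these genes reached very different levels in the ox-LDL libraries. Capitals mark the only match among the 5 promoters, an NF-kB consensus of Pdcd1lg2 at -244 to -235 from the start, where the consensus matched on both strands.
Cd274, chr19:29367188-29367487, plus strand: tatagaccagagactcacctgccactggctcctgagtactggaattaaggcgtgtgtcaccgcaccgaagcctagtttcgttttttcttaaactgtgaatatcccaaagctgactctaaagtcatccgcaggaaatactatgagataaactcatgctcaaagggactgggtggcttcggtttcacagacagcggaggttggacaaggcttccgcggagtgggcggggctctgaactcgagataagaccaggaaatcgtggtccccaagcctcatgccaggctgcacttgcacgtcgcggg
Pdcd1lg2, chr19:29410669-29410968, plus strand: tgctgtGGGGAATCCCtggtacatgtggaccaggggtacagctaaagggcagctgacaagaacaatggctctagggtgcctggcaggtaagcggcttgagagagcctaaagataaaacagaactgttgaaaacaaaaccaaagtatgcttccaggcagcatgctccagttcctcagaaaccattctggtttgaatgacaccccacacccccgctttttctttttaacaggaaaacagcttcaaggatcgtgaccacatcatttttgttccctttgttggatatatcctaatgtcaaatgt
Icosl, chr10:78069118-78069417, plus strand: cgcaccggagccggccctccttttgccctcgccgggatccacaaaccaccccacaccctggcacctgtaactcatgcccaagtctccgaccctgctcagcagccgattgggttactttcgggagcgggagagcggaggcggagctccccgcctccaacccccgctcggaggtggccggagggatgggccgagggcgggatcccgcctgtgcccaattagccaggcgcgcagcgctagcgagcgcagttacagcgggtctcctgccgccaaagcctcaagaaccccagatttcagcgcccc

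The promoter of Icosl was rich in G and C (68.0%, with 26 CpG sites), that of Cd274 was near the median of all promoters in G and C (52.7% against 53.0%) with 15 CpG sites against a median of 7, and that of Pdcd1lg2 was poorer (46.0%, 3 CpG sites). The promoters of Cd80 (49.7%) and Havcr2 (45.3%) also had 3 CpG sites each. A match is a string of letters in this window and was not tied to any change in expression.

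Levels are given as CPM, the count as a share of its library after scaling by edgeR's TMM factors, and levels of different genes are compared as FPKM, which also divides by gene length. The total count was 19257131 to 20687289 per library, so depth was nearly even. TMM factors were 0.593 for ox-LDL 2, 0.837 for ox-LDL 5 and 0.916 to 1.19 for the rest. Longer genes were relatively low in ox-LDL 2 (Spearman -0.65 between gene length and the deviation from the group mean, across genes), control 1 and control 4 (-0.57 and -0.47), and not in the others (0.05 to 0.52). A call was an adjusted p below 0.01 in edgeR's quasi-likelihood test over 12654 genes. Macrophage markers were abundant in every library (Lyz2 and Cd68 most of all), with summed values of 23996 to 44345 CPM by library size in controls and 13735 to 29092 in ox-LDL libraries.

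Cd40, Cd274 and Cd86 rose in ox-LDL-treated macrophages, and Havcr2, Cd200r1 and Cd80 fell. Pdcd1lg2 and Cd83 did not pass the test. Of the 8 members counted, 3 were called higher, against 9.40% of all genes tested, and 3 were called lower, against 5.35%. All 3 that rose had a log2 fold change above 2, and of the 3 that fell only Havcr2 went below -2. Groups did not overlap for the same 3 higher and 3 lower members, against 11.6% of all genes without overlap and higher and 9.11% without overlap and lower. The median log2 fold change over the 8 members was 0.45, beside 0.10 over all genes tested. In bulk RNA, a lower level in each cell and fewer cells that express a gene cannot be told apart.

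**Figure D1:**
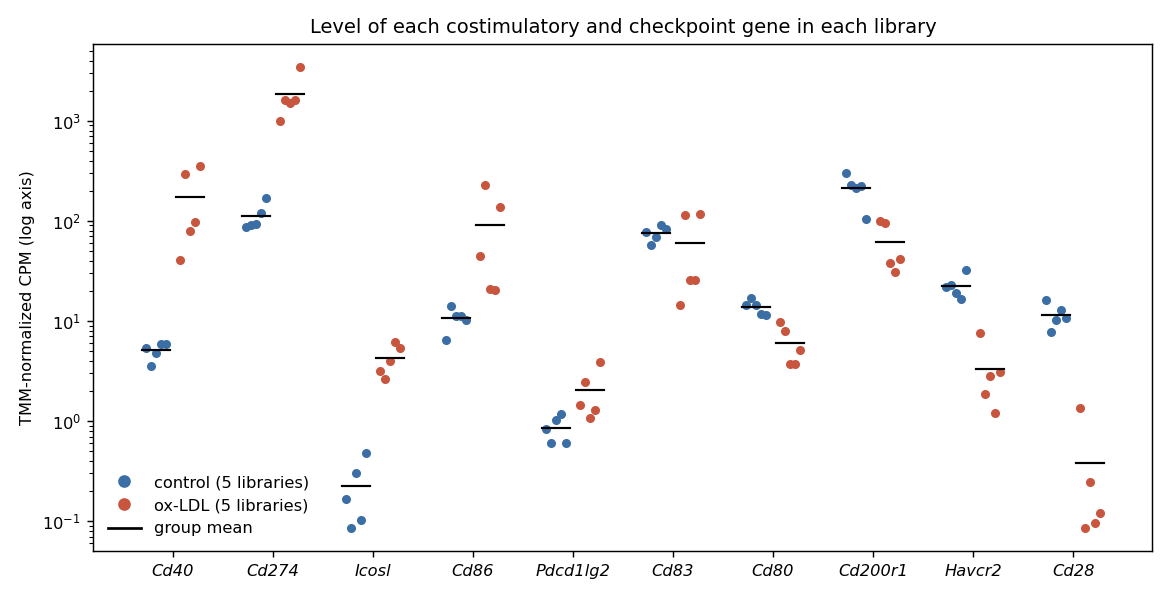
Level of each gene in each library, as TMM-normalized CPM on a log axis, with control libraries 1 to 5 in blue and ox-LDL libraries 1 to 5 in red from left to right, and a black line at each group mean (n = 5 libraries per group). Red points lie above all blue points for Cd40, Cd274, Icosl and Cd86 and below them for Cd80, Cd200r1, Havcr2 and Cd28, whereas Cd83 has 3 red points below and 2 above.

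The CD28 and CTLA-4 ligands moved in opposite directions. Cd86 was at 6.53, 14.2, 11.2, 11.2 and 10.2 CPM in controls 1 to 5 and at 44.3, 229, 20.9, 20.2 and 137 CPM in ox-LDL 1 to 5. All treated libraries were above all controls, but ox-LDL 2 and ox-LDL 5 stood far over the other treated libraries. On average it rose from 10.7 ± 2.75 to 90.3 ± 91.3 CPM (mean ± SD, n = 5), and the fitted log2 fold change was 3.08 (SE 0.65, adjusted p = 0.00452, edgeR). Without ox-LDL 2 the log2 fold change of Cd86 was 2.34 (adjusted p = 0.00544), and without any one of the controls or without ox-LDL 5 its adjusted p was 0.011 to 0.0154 from the same test, above the threshold.

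Cd80 was at 14.5, 17, 14.5, 11.7 and 11.4 CPM in controls 1 to 5 and at 9.83, 7.88, 3.71, 3.73 and 5.08 CPM in ox-LDL 1 to 5. Every treated library was below every control, with a narrow gap between control 5 and ox-LDL 1. On average it fell from 13.9 ± 2.31 to 6.04 ± 2.71 CPM (mean ± SD, n = 5), and the fitted log2 fold change was -1.20 (SE 0.29, adjusted p = 0.00926, edgeR). This call was lost in 12 of 25 alternative fits, more than for any other member. With CPM scaled by library size alone the groups overlapped, control 4 at 11.6 and ox-LDL 1 at 11.7 CPM, and the adjusted p of Cd80 was 0.0132. Leaving out any one of the controls, ox-LDL 3, ox-LDL 4 or ox-LDL 5 also gave an adjusted p above 0.01, up to 0.0266 from the same test.

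The balance of the ligands was read per length. The ratio of Cd86 to Cd80 in FPKM was 0.326, 0.583, 0.550, 0.691 and 0.613 in controls 1 to 5 and 3.49, 21.5, 4.09, 4.45 and 20.1 in ox-LDL 1 to 5. Cd80 was thus the more abundant transcript in every control and Cd86 in every treated library. The sum of both was 10.4 to 18.4 FPKM in controls and 30.0, 63.7, 12.3, 12.9 and 52.5 FPKM in ox-LDL 1 to 5. In ox-LDL 3 and ox-LDL 4 the sum therefore lay within the range of the controls, while the ratio did not.

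**Figure D2:**
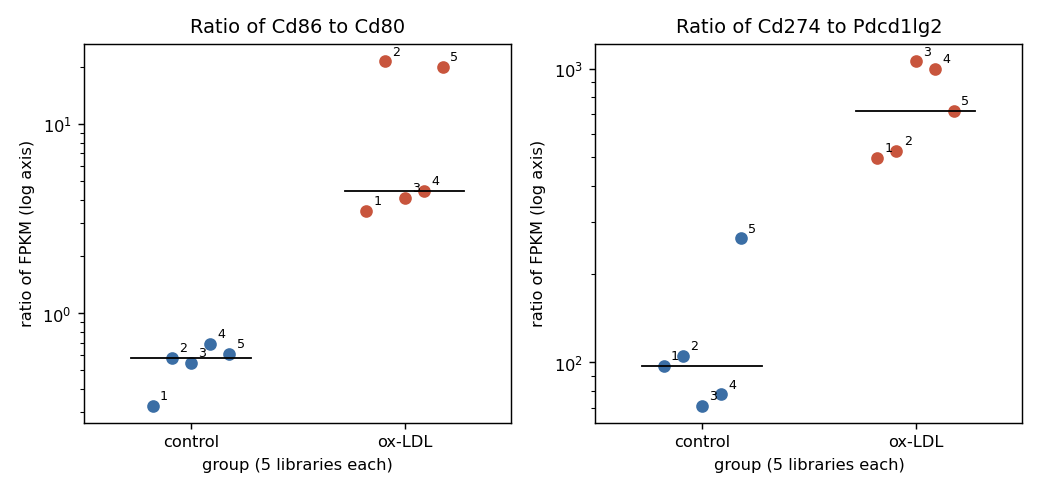
Ratio of Cd86 to Cd80 (left) and of Cd274 to Pdcd1lg2 (right) in each library, from FPKM, on log axes, with the library number beside each point and a line at the group median (5 libraries per group). The medians are 0.583 and 4.45 on the left and 97.6 and 721 on the right, and neither ratio overlaps between groups.

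Cd28, the receptor of these ligands and a gene best known from T cells, had 290, 181, 239, 252 and 247 counts in controls 1 to 5 and 31, 1, 5, 2 and 2 counts in ox-LDL 1 to 5. In CPM the controls were at 16.0, 7.75, 10.2, 13.0 and 10.7 and the treated libraries at 1.35, 0.0856, 0.244, 0.0957 and 0.119. The gene was near the limit of detection in ox-LDL 2 to ox-LDL 5, and ox-LDL 1 was the highest treated library. Controls averaged 11.5 ± 3.1 CPM and treated libraries 0.379 ± 0.546 CPM (mean ± SD, n = 5), and the fitted log2 fold change was -4.79 (SE 0.63). Without ox-LDL 1 the fitted value was -6.28.

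The level of Cd28 in controls stood beside few counts of T cell genes. Over the 5 controls, Cd28 had 1209 counts in sum, whereas Cd3e had 0, Cd3g 3, Cd3d 4 and Cd8a 0, genes of the T cell receptor complex and its co-receptor. The other co-receptor gene Cd4 had 61.7 counts over the controls and 13 over the ox-LDL libraries, and Cd247 of the receptor complex had 14.6 and 75.9. The kinase gene Lck had 64 and 98. Of 16 T cell markers, 15 had at most 20 counts in every control and 11 had at most 5 counts in every library. Summed T cell markers were at 10.3 to 65.9 CPM by library size in controls and 5.89 to 16.9 in ox-LDL libraries, ranges that overlap. Most of this was Lat, an adaptor of the T cell receptor that mast cells and other leukocytes also use, with 155 to 1276 counts in controls and 72 to 230 in ox-LDL libraries. Without Lat the sum was at most 2.51 CPM in controls and 4.64 in ox-LDL libraries. The neighbouring genes Ctla4 and Icos had 0 and 4 counts over the controls and 5 each over the ox-LDL libraries. The part of other cells in the Cd28 values was not tested.

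**Figure D3:**
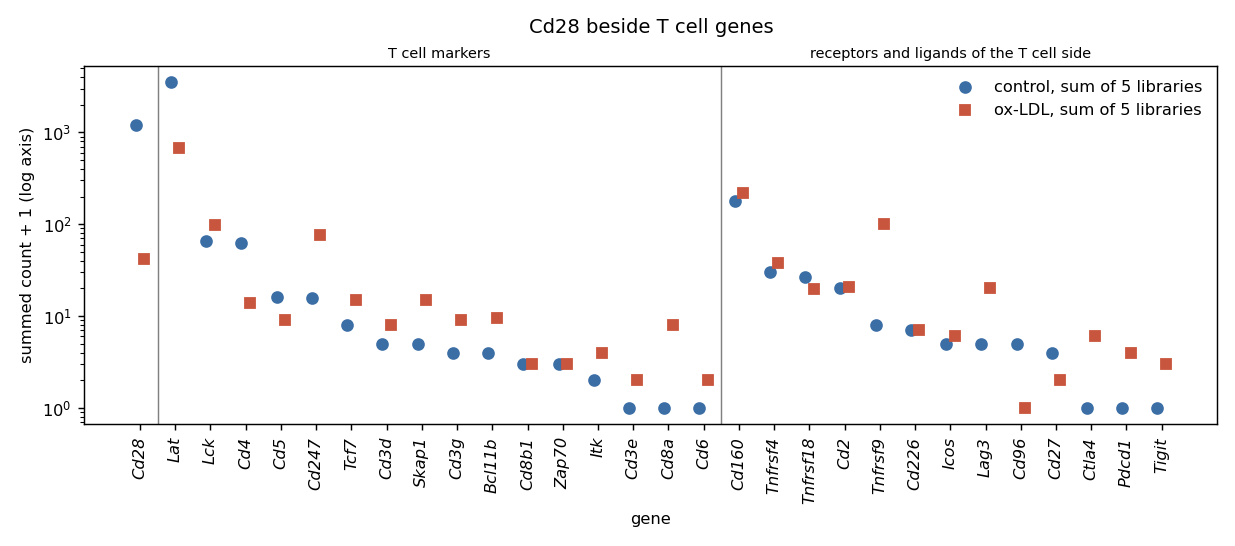
Counts of Cd28, of 16 T cell markers and of 13 receptors and ligands of the T cell side, each summed over 5 control (blue circles) or 5 ox-LDL libraries (red squares), plus 1, on a log axis. Cd28 stands at 1209 counts in controls and 41 in ox-LDL libraries, and the genes of the CD3 complex stay under 10 except Cd247.

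Of the PD-1 ligands, Cd274 rose and Pdcd1lg2 did not pass the test. Cd274 was at 86.5, 90.1, 93.7, 119.5 and 170 CPM in controls 1 to 5 and at 986, 1631, 1503, 1620 and 3451 CPM in ox-LDL 1 to 5. The lowest treated library was far above the highest control, and control 5 and ox-LDL 5 were the highest of their groups. On average it rose from 112 ± 34.8 to 1838 ± 939 CPM (mean ± SD, n = 5), and the fitted log2 fold change was 4.04 (SE 0.39, adjusted p = 3.4e-05, edgeR). Without control 5 the log2 fold change of Cd274 was 4.23 and without ox-LDL 5 it was 3.68, both with an adjusted p below 0.01.

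Pdcd1lg2 was at 0.830, 0.599, 1.03, 1.18 and 0.608 CPM in controls 1 to 5 and at 1.43, 2.48, 1.07, 1.29 and 3.88 CPM in ox-LDL 1 to 5. Of the treated libraries, 4 were above all controls and ox-LDL 3 lay among them. These values rest on 14 to 24 counts per control and 22 to 65 per treated library. Controls averaged 0.850 ± 0.257 CPM and treated libraries 2.03 ± 1.17 CPM (mean ± SD, n = 5), and the fitted log2 fold change was 1.24 (SE 0.41, adjusted p = 0.0426, edgeR), which did not pass the threshold. The adjusted p ranged from 0.0181 to 0.216 over the settings tried. Cd274 exceeded its neighbour in every library, with a ratio in FPKM of 71.3 to 265 in controls (median 97.6, the highest in control 5) and 499 to 1063 in ox-LDL libraries (median 721).

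Icosl was close to absent in controls, with 3, 2, 7, 2 and 11 counts, and had 72, 31, 82, 130 and 89 counts in ox-LDL 1 to 5. In CPM the controls were at 0.166, 0.0856, 0.30, 0.103 and 0.478 and the treated libraries at 3.1, 2.65, 4.00, 6.22 and 5.32. The groups did not overlap, and control 5 was the highest control. Controls averaged 0.226 ± 0.164 CPM and treated libraries 4.26 ± 1.49 CPM (mean ± SD, n = 5), and the fitted log2 fold change was 4.18 (SE 0.47), or 4.64 without control 5. No test is given, since Icosl entered the fit through its ox-LDL libraries alone. The fitted size depends on few control counts, and the level stayed low, at 1.60 ± 0.725 FPKM in the ox-LDL libraries.

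Cd40 showed the highest fitted fold change of the members. It was at 5.42, 3.55, 4.84, 5.92 and 5.95 CPM in controls 1 to 5 and at 40.3, 294, 79.0, 97.0 and 352 CPM in ox-LDL 1 to 5. The controls were close together, and the treated libraries ranged from ox-LDL 1 at 7.85 times to ox-LDL 5 at 68.5 times the control mean. On average it rose from 5.14 ± 0.996 to 172 ± 140 CPM (mean ± SD, n = 5), and the fitted log2 fold change was 5.07 (SE 0.59, adjusted p = 1.14e-04, edgeR). Over the settings tried, the log2 fold change of Cd40 ranged from 4.10 to 5.32 and the adjusted p did not exceed 8.09e-04.

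Cd83 was at 76.9, 58.1, 68.3, 91.0 and 82.5 CPM in controls 1 to 5 and at 14.4, 114, 25.5, 25.7 and 118 CPM in ox-LDL 1 to 5. The treated libraries split, with ox-LDL 1, ox-LDL 3 and ox-LDL 4 below all controls and ox-LDL 2 and ox-LDL 5 above them. By library size alone ox-LDL 2 was at 67.5 CPM, within the controls at 66.9 to 95.1. Controls averaged 75.4 ± 12.7 CPM and treated libraries 59.6 ± 51.8 CPM (mean ± SD, n = 5), and the fitted log2 fold change was -0.34 (SE 0.52, adjusted p = 0.674, edgeR). The spread between the treated libraries was larger than the difference between the group means.

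Havcr2 and Cd200r1, the genes of inhibitory receptors among the members, fell. Havcr2 was at 22.1, 22.9, 19, 16.6 and 32.3 CPM in controls 1 to 5 and at 7.61, 1.88, 2.83, 1.2 and 3.11 CPM in ox-LDL 1 to 5. All treated libraries were well below all controls, with ox-LDL 1 the highest of them. On average it fell from 22.6 ± 5.99 to 3.32 ± 2.51 CPM (mean ± SD, n = 5), and the fitted log2 fold change was -2.75 (SE 0.43, adjusted p = 7.22e-04, edgeR). The call of Havcr2 held in all 25 alternative fits that gave an adjusted p, with 0.00287 as the highest.

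Cd200r1 was at 304, 226, 215, 223 and 105 CPM in controls 1 to 5 and at 101, 95.8, 37.8, 31.1 and 41.7 CPM in ox-LDL 1 to 5. Control 5, at less than the other controls, nearly touched ox-LDL 1, and in FPKM these libraries were at 67.4 and 67.2. On average it fell from 215 ± 71.1 to 61.4 ± 33.9 CPM (mean ± SD, n = 5), and the fitted log2 fold change was -1.81 (SE 0.39, adjusted p = 0.00511, edgeR). Without control 5 the log2 fold change of Cd200r1 was -1.98, whereas leaving out any one of controls 1 to 4 or of ox-LDL 3 to 5 gave an adjusted p of 0.0116 to 0.0185, above the threshold. Cd200, the ligand of CD200R1, was at 190 ± 36.8 CPM in the controls and 309 ± 95.3 CPM after treatment (log2 fold change 0.70, adjusted p = 0.0527 from edgeR), and Lgals9, which encodes galectin-9, a ligand of TIM-3, rose from 57.5 ± 11.6 to 220 ± 112 CPM (log2 fold change 1.93, adjusted p = 7.31e-04 from edgeR).

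**Figure D4:**
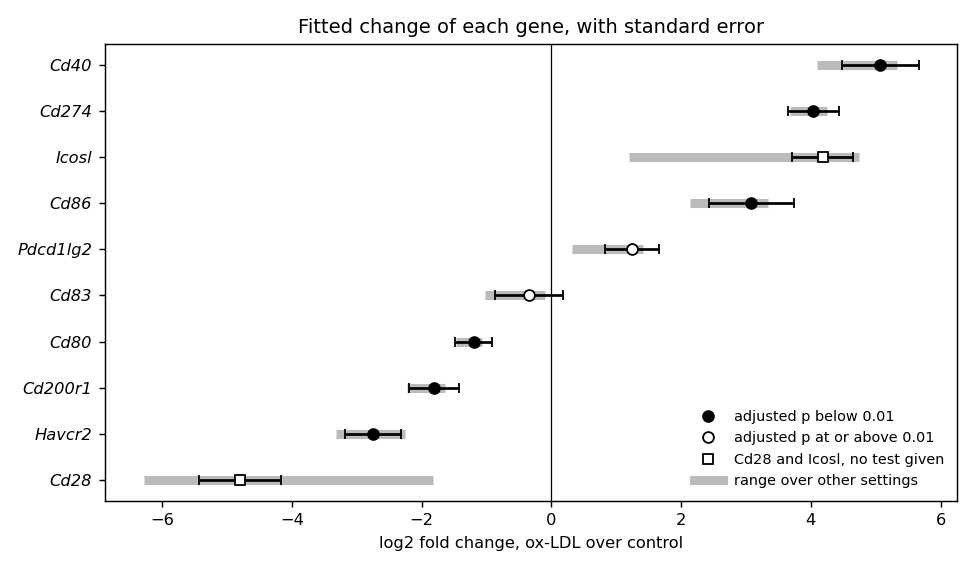
Fitted log2 fold change of each gene, ox-LDL over control, with its standard error (bars), and the range over the other settings tried (grey). Filled circles have an adjusted p below 0.01, open circles do not, and the squares are Cd28 at -4.79 and Icosl at 4.18, for which no test is given. The grey ranges of Icosl and Cd28 extend toward 0 to 1.2 and -1.83, the values of limma on log2(FPKM + 1).

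Treated libraries varied among themselves more than controls for 9 of the 10 genes, and the share over all genes was not counted. In pairs of libraries, over tested genes with enough counts, the chi-square per degree of freedom was 26.0 to 506 within the ox-LDL group. Within the controls it was 10.5 to 166, so the wider spread was not particular to the members. The coefficient of variation in ox-LDL libraries was 101% for Cd86, 87.0% for Cd83 and 81.4% for Cd40, against 25.8%, 16.9% and 19.4% in controls. Icosl was the exception, at 34.9% against 72.3%, on few control counts. The same libraries recurred at the extremes. Ox-LDL 1 had the highest treated level for all 4 genes that were lower (Cd80, Cd28, Cd200r1 and Havcr2) and the lowest for Cd40, Cd274 and Cd83. For Cd274 this depended on the TMM factors. By library size alone ox-LDL 2 was lower, at 966 CPM against 1175 in ox-LDL 1, and in FPKM these were 274 and 335. Ox-LDL 5 was the highest for Cd274, Cd40, Cd83 and Pdcd1lg2, and ox-LDL 2 for Cd86. Among the controls, control 5 was the highest for Cd274, Icosl and Cd40, and also for Havcr2, and the lowest for Cd80 and Cd200r1. By library size alone, control 4 was the lowest for Cd80, at 11.6 CPM against 13.2 in control 5.

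**Figure D5:**
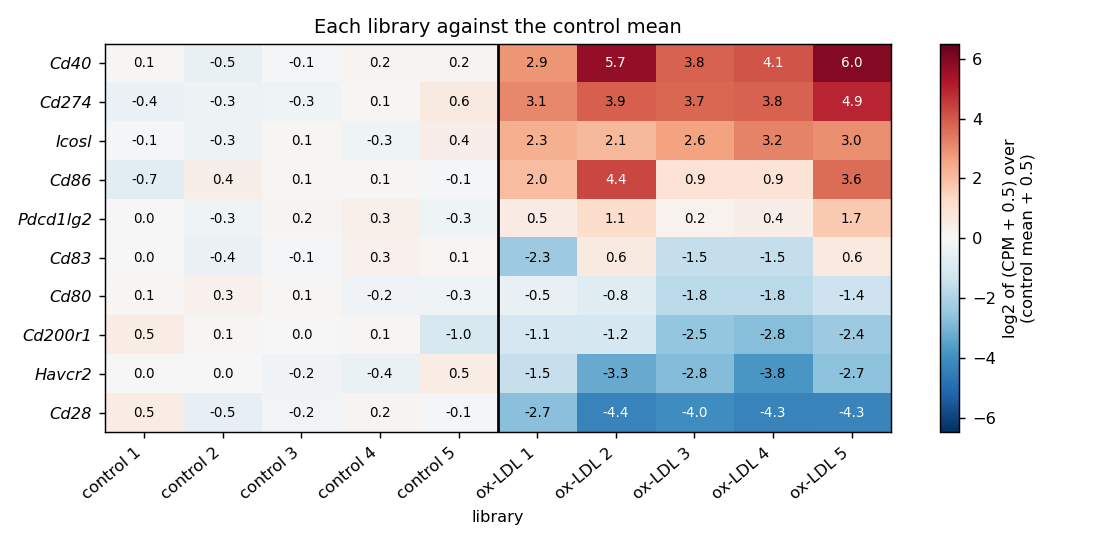
Each library against the control mean, as log2 of (CPM + 0.5) over (control mean + 0.5), with genes in rows and libraries in columns and red above, blue below the control mean. Ox-LDL 1 is the palest treated column for Cd40, Cd274, Havcr2 and Cd28, and Cd83 is blue in ox-LDL 1, ox-LDL 3 and ox-LDL 4 and red in ox-LDL 2 and ox-LDL 5.

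Ordered by FPKM, the controls were led by Cd200r1 (127 ± 35.1), followed by Cd83 (39.7 ± 5.96), Cd274 (34.5 ± 12.5), Havcr2 (10.2 ± 3.33), Cd80 (8.81 ± 1.93), Cd86 (4.86 ± 1.52), Cd40 (3.53 ± 0.672), Cd28 (2.90 ± 0.494), Pdcd1lg2 (0.318 ± 0.110) and Icosl (0.0960 ± 0.0737; mean ± SD, n = 5). Neighbours in this order overlapped over libraries except at Cd200r1 over Cd83, Cd274 over Havcr2 and Cd28 over Pdcd1lg2. In ox-LDL libraries the order was Cd274 (480 ± 213), Cd40 (91.3 ± 62.6), Cd200r1 (32.0 ± 20.3), Cd86 (30.9 ± 23.4), Cd83 (23.7 ± 17), Cd80 (3.35 ± 1.87), Icosl (1.60 ± 0.725), Havcr2 (1.51 ± 1.36), Pdcd1lg2 (0.654 ± 0.285) and Cd28 (0.10 ± 0.158). Neighbours separated here at Cd274 over Cd40, Cd83 over Cd80 and Pdcd1lg2 over Cd28 only. The member with the highest transcript level thus changed from Cd200r1 to Cd274, and Cd40 went from place 7 to place 2.

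Genes with the most similar pattern over the 10 libraries were sought for Cd28, Cd40 and Cd274 by the root mean square difference of log2(CPM + 0.5) after centring. Values centred over both groups keep the group difference, so a gene with a like fold change can rank as near for that alone. For Cd28, the added 0.5 exceeds its CPM in ox-LDL 2 to ox-LDL 5 and flattens its pattern there. For Cd28 they were Rgs2 (0.32), Gm5150 (0.34) and Sesn1 (0.35), for Cd40 Ifi47 (0.38), Isg15 (0.38) and Cxcl16 (0.40), and for Cd274 Tap1 (0.30), Cdc42ep2 (0.30) and H2-Q4 (0.31). Ifi47 and Isg15 are interferon-induced genes, Tap1 encodes a subunit of the peptide transporter of MHC class I, and Rgs2 a regulator of G protein signalling.

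Other genes of antigen-presenting cells with costimulatory or checkpoint roles were examined next. Of 37 listed, 35 were matched and 23 tested. Tnfsf9, Tnfsf15, Slamf1 and Timd4 passed the filter on low counts through the ox-LDL libraries alone. Of the other 19, 7 were called higher and 3 lower, beside 9.40% and 5.35% of all genes tested, with a median log2 fold change of 0.83 beside 0.10 over all genes. Icam1, the adhesion ligand of LFA-1 on T cells, rose from 11.4 ± 4.45 to 183 ± 152 CPM (log2 fold change 4.00). Fgl2, a secreted immunoregulatory fibrinogen-like protein, rose from 13.9 ± 2.85 to 143 ± 87.1 CPM (log2 fold change 3.36, n = 5 each). Tnfsf9, the 4-1BB ligand, was at 1.17 ± 0.615 CPM in the controls and 12.7 ± 6.03 CPM after treatment. Slamf1, a self-ligand of the SLAM family, had at most 3 counts in any control and 1.04 to 35.8 CPM in ox-LDL libraries, so no fold is given. Slamf7, Pvr, Lgals9, Nectin2 and Tnfrsf14 were the other genes called higher. Cd48, Ceacam1 and Vsir fell, with log2 fold changes of -2.0, -1.96 and -1.06. Fgl2, Icam1, Tnfsf9 and Pvr share bases with a gene of the other strand, and whether reads were counted by strand is not stated.

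Genes that act downstream of CD40 were called higher for 10 of 24, and 0 of 24 were called lower, with a median log2 fold change of 1.00. Over all genes tested these were 9.40%, 5.35% and 0.10. The 0 is from edgeR's quasi-likelihood test, with 1 lower (Mapk14) at an unadjusted p below 0.05, and DESeq2 and limma-voom also gave 0. Traf1 rose from 4.11 ± 1.34 to 128 ± 93.0 CPM (log2 fold change 4.96) and Nfkbia, which encodes the inhibitor that holds NF-kB in the cytoplasm, from 22.0 ± 2.67 to 202 ± 117 CPM (3.20). Birc3 and Nfkb2 had log2 fold changes of 2.37 and 2.28, and Tnfaip3, Traf2, Relb, Traf3, Ikbkg and Traf6 were the others called. Toll-like receptor signals use many of the same genes, and the ligand gene Cd40lg was not matched to a row. Traf2, Traf3, Ikbkg and Nfkb2 share bases with a gene of the other strand.

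Among 24 genes known for the induction or stability of PD-L1, Socs1 passed the filter through the ox-LDL libraries alone. Of the other 23, 9 were called higher and 1 lower, beside 9.40% and 5.35% of all genes tested, with a median log2 fold change of 0.81 beside 0.10 over all genes. Irf1, the interferon-induced factor that drives Cd274, rose from 24.0 ± 5.03 to 625 ± 347 CPM (log2 fold change 4.70). The feedback inhibitor Socs3 had a log2 fold change of 5.58, and Hif1a, Stat2, Stat3, Jak2, Ifnar2 and Ptpn2 were also called higher. Ifngr1, a chain of the interferon gamma receptor, fell from 171 ± 31.7 to 54.4 ± 11.2 CPM (log2 fold change -1.66). Cmtm6, which protects PD-L1 from degradation, was at 61.0 ± 6.51 and 36.5 ± 12.7 CPM (log2 fold change -0.74, adjusted p = 0.0292 from edgeR). Irf1, Hif1a and Stat3 share bases with a gene of the other strand, and Ifnar2 with Il10rb on the same strand. All SDs are over n = 5 libraries per group.

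The T cell partners were nearly unmeasured. Of 15 listed receptors and ligands, 14 were matched and 2 had enough counts for a test. Tnfrsf9, the 4-1BB receptor, passed the filter through the ox-LDL libraries alone, with at most 3 counts in any control and 11 to 33 counts in ox-LDL libraries, and no test is given for it. Cd160 did not pass (log2 fold change 0.50, adjusted p = 0.287 from edgeR). Pdcd1, the gene of PD-1, had 0 counts in all controls and 3 in sum over ox-LDL libraries.

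Markers of other cells were summed as CPM by library size, with the most abundant genes named per length (FPKM), and their part in the results was not tested. Dendritic cell markers were at 92.9 to 408 in controls and 55.6 to 435 in ox-LDL libraries, mostly Itgax, which macrophages also carry. Without Itgax they were at most 10.8 and 102, with Ccl22 next. Single genes of this list went different ways. Flt3 had at most 5 counts in any library. Ccr7 had 0 to 13 counts in controls and 35 to 231 in ox-LDL libraries, and Clec9a 4.78 to 11.1 and 16.5 to 41.6. In the same order, Cd209a had 3 to 38 and 0 to 1 counts, and Batf3 37 to 105 and 10 to 56. B cell markers were lower after treatment without overlap (45.0 to 57.6 against 12.5 to 32.5), mostly Cd22, and without it at most 3.00 and 4.25. In sum, mesothelial and stromal markers were higher without overlap (18.1 to 62.3 against 67.1 to 178), with Dcn and Col1a2 the most abundant. These stromal genes averaged 28.5 and 4.37 CPM in controls and 75.6 and 20.7 in ox-LDL libraries. The mesothelial genes Msln, Upk3b, Krt19 and Wt1 averaged 0.111, 0.544, 0.503 and 1.36 CPM in controls. In ox-LDL libraries they averaged 0.114, 0.0843, 0.444 and 2.11 CPM. Neutrophil markers (S100a8 and Mmp8) were at 19.4 to 45.0 and 24.2 to 92.3 in sum, but these genes went opposite ways. S100a8 averaged 10.5 CPM in controls and 56.0 in ox-LDL libraries, and Mmp8 20.4 and 7.81. Without S100a8 the neutrophil sum was at most 38.7 and 11.3. Eosinophil and mast cell markers (Cma1 and Siglecf) were at 3.40 to 15.6 and 0.887 to 4.99, and NK cell markers at 0.457 to 1.65 and 0.365 to 2.85.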

How the data were processed

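RNA-seq libraries of 5 control and 5 ox-LDL-treated macrophage cultures were grouped by their labels. The authors checked reads with FastQC, aligned them to mm9 with HISAT2 2.0.5, and used SAMtools 1.4 for sorting and StringTie 1.3.3.13 for assembly. They deposited estimated counts per gene, 13.6% of which were not whole numbers, and another value for each gene and library, with no unit named. Counts divided by library total and by this value gave a constant length per gene (median coefficient of variation 0.77% over 4059 genes), so the deposited values were used as FPKM. The counting step and its use of strand are not given in the sources used here. Of 39488 rows, 9788 circular RNAs (1.44% to 2.24% of counts) were left out. Symbols came from RefSeq (22818 of 23382 NCBI rows), coordinates in mm9 from GENCODE vM1 and promoters from RefSeq GRCm38.p6.

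Estimated counts were rounded and tested with edgeR 4.0.16 (filterByExpr by group, TMM, robust quasi-likelihood test) in R 4.3.3 over 12654 genes, with Benjamini-Hochberg adjustment and calls below 0.01. The standard error (SE) was taken as the absolute log2 fold change over the square root of F. The biological coefficient of variation was 37.3%. Alternatives were DESeq2 1.42.0, limma-voom and limma 3.58.1 on log2(FPKM + 1) or log2(FPKM + 0.1), other normalizations, filters, rows and thresholds, removal of each library's trend on gene length, a replicate block and each library left out. The members and lists were chosen with earlier results of these data known. Beside the members, genes were named as up to 4 in each direction of each pathway list past both cutoffs (absolute log2 fold change above 2, at least 1 CPM), the 2 most abundant of each marker list and the 3 nearest patterns. Cd200, Lgals9, Cmtm6, Ifngr1 and other list members outside that rule were named after their values were seen. Not every list member is reported here by name.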

Additional observations from a re-analysis of the deposited data

Results flagged for a closer look

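Each member was examined in both groups for a library far from the rest, defined as a gap to the nearest library that exceeds 0.71 of the range of the 5 libraries. Of 20 groups examined, 2 held such a library, where chance gives about 1 in 20. For Cd274, ox-LDL 5 was at 3451 CPM and the next treated library at 1631 CPM, a gap of 0.738 of the range. Without ox-LDL 5 the log2 fold change of Cd274 was 3.68 in place of 4.04. For Cd28, ox-LDL 1 was at 1.35 CPM and the next treated library at 0.244 CPM, a gap of 0.875 of the range. These levels correspond to 31 and 5 counts of Cd28, and without ox-LDL 1 its fitted log2 fold change was -6.28 in place of -4.79.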

How the results depend on the processing

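Over 25 alternative fits, Cd274, Cd40 and Havcr2 kept their direction and their call. Cd80 lost its call in 12, Cd86 in 11 and Cd200r1 in 7 of 25, with no change of direction, and the cause was not tested. Of the 3 members called higher, Cd274 and Cd40 alone were thus left in the 11 fits without a call of Cd86. Leaving out each control or ox-LDL 5 was among these fits. At an adjusted p below 0.05 in edgeR, Pdcd1lg2 was also called higher. The count of 3 called lower was 1 to 3 when a library was left out and 1 with a log2 cutoff of 2. Over all genes, 1189 were called higher and 677 lower. The higher count was 704 with library size alone, 1819 with the length trend removed, 553 with limma on log2(FPKM + 0.1), 570 on log2(FPKM + 1) and 469 without its filter, 2045 at an adjusted p below 0.05, 605 with the log2 cutoff and 826 to 1755 with a library left out. The lower count was 1244 with DESeq2 and 1244 with the length trend removed, 1320 at 0.05, 244 with the log2 cutoff and 436 to 1502 with a library left out. Without control 5 and ox-LDL 2, an alternative chosen after seeing the data, the counts were 1843 and 1483. The lists of other costimulatory genes and of PD-L1 genes hold members that passed the filter through the ox-LDL libraries alone. Their counts called higher are therefore given only with at least 10 counts in every library, a filter those members did not pass. The 11 other costimulatory genes called higher were 7 with at least 10 counts in every library, 7 on log2(FPKM + 0.1), 7 on log2(FPKM + 1) and 4 without its filter, and the 3 lower were 0 with the log2 cutoff. The 10 CD40 signalling genes called higher were 16 with the length trend removed, 6, 6 and 5 in the FPKM fits, 5 with the log2 cutoff and 7 to 15 with a library left out. Of the PD-L1 genes, 9 were called higher with at least 10 counts in every library. The 1 called lower was 2 with DESeq2, upper-quartile factors, the length trend removed or an adjusted p below 0.05. It was 0 with the log2 cutoff and 1 to 2 with a library left out. For the T cell side, no counts over settings are given, since Tnfrsf9 passed the filter through the ox-LDL libraries alone. Cd28 was at -1.83 on log2(FPKM + 1). Replicate numbers gave no clear pairing of the samples (correlations of same-numbered deviations 0.02, -0.27, 0.44, -0.28 and 0.41). This check cannot exclude a pairing, since the libraries also differed in their trend on gene length. With the replicate block, Cd274 and Cd40 were called higher and Cd80, Cd200r1 and Havcr2 lower. Cd86 lost its call there (log2 fold change 2.48, adjusted p = 0.0128 from edgeR). Of all genes, 885 were called higher and 549 lower with this block. Depth limits Icosl, Pdcd1lg2 and the treated level of Cd28.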
